A study of Mus musculus with 82 samples.

Results

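The brain and retina are fed by vessels whose wall is built from endothelial cells, the mural cells that wrap them, and the fibroblasts that lie around larger vessels and in the meninges. A list of 39 mouse genes was followed through the superior colliculus (SC), the midbrain target of retinal ganglion cells, and through sorted retinal ganglion cells (RGCs): 25 endothelial genes, 1 angiogenic ligand (Vegfa), 8 genes of pericytes and smooth muscle cells, together called mural cells, and 5 fibroblast genes. The members were listed by cell type and found by gene symbol, and all 39 matched a row among the 43629 gene identifiers of both count tables. The mice carried Vglut2-ires-Cre and a Thy1-STOP-YFP reporter, were labelled wild-type, were of either sex, and were listed as about 10 weeks old. In all animals the left SC received an AAV2/7 vector at 5 weeks of age. In the DREADD groups its CaMKIIα promoter drove the excitatory receptor hM3D(Gq) fused to mCherry, so expression was aimed at excitatory neurons, and in the other groups the vector carried mCherry only. All groups were given clozapine-N-oxide (CNO), the drug that activates hM3D(Gq), at 3 mg/kg 3 times a week for 5 weeks, with the last dose 2 h before death. The first dose came 2 weeks after the vector, so these times add up to more than the 10 weeks listed. The right eye received either microbeads that raise intraocular pressure (OHT, ocular hypertension) or balanced salt solution (SHAM). Each tissue was represented by 10 SHAM, 11 OHT, 10 SHAM + DREADD and 10 OHT + DREADD libraries.

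In textbook terms, brain endothelial cells are joined by tight junctions and carry transporters that let in glucose and selected lipids and pump out drugs, which together form the blood-brain barrier. Pericytes cover capillaries and receive PDGF-B from the endothelium, smooth muscle cells encircle arteries and contract through smooth muscle actin and myosin, and fibroblasts lay down collagens and small proteoglycans. Neurons and glia supply VEGF-A, which acts on the endothelial receptors FLT1 and KDR, and angiopoietins act on TEK. The same genes are not all private to vessels: glucose transporter and vitronectin transcripts, for example, are also made by cells of the retina.

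The SC libraries were 3′ tag libraries (QuantSeq) of whole colliculus lysate and held 1766207 to 4239835 counts (median 2926193). The RGC libraries were full-length Smart-Seq2 libraries of YFP-positive, 7-AAD-negative cells from 1 retina each and held 3534776 to 6889040 counts (median 5107338). Levels are given as CPM, the reads of a gene scaled to a common library size, with edgeR's trimmed mean of M values over the 41 libraries of a tissue. Several facts of the series touch the results. Expression of Xist against Y-linked genes divided the SC animals into 2 females of 10 in SHAM, 2 of 11 in OHT, 10 of 10 in SHAM + DREADD and 5 of 10 in OHT + DREADD, so stimulation without OHT coincided with sex apart from the 2 SHAM females. The library SHAM 1 of the SC carried labels that disagreed about its treatment and was kept as SHAM. The sorted cells still held rod transcripts, 10 rod genes summing to 11013 to 99497 CPM beside 433 to 1818 CPM for 10 RGC genes.

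Promoters were available from RefSeq (GRCm38.p6) for 25 of the 39 members, as 300 bases from 250 before the start site to 50 after it. The 4 shown belong to genes on which the SC results turn: Acta2 and Col1a2 varied together between colliculi, and Slc2a1 and Mfsd2a are the barrier transporters of lowest p in the comparisons. Capitals in the first mark a CArG-like element, CC-N-TATA-N-GG, of the kind bound by serum response factor, and capitals in the other promoters mark ACGTG or its reverse complement CACGT, the core of hypoxia response elements and E-boxes. Positions count back from the start site, whose own base is 1.
Acta2, chr19:34255324-34255623, minus strand, CArG-like element at -84 to -75: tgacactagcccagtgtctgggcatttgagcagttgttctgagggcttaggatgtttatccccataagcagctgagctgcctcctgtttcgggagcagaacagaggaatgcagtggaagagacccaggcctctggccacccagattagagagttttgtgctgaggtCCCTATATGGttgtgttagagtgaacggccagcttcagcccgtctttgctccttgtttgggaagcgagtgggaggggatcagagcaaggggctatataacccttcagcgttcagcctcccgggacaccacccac
Col1a2, chr6:4505368-4505667, plus strand, core at -131 to -127 and at -87 to -83: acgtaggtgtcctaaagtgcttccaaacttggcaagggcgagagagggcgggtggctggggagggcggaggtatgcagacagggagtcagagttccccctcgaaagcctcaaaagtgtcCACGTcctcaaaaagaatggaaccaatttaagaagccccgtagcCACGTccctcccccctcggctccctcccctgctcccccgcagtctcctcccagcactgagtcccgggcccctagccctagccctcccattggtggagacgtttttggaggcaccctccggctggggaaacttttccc
Slc2a1, chr4:119108495-119108794, plus strand, core at -36 to -32: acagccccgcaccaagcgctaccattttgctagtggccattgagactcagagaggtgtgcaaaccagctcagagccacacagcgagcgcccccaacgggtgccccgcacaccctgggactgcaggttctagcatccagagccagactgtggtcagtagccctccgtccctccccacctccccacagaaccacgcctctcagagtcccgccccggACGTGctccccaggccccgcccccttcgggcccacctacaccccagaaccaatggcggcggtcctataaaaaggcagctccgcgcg
Mfsd2a, chr4:122961139-122961438, minus strand, core at -107 to -103 and at -9 to -5: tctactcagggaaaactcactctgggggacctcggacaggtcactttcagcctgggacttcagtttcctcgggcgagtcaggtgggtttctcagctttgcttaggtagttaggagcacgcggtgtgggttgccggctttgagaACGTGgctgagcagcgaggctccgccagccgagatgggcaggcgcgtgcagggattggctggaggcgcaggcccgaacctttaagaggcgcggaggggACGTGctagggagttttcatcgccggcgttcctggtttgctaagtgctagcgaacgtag
Searched on both strands, the CArG-like element was present in 0.289% of the 32851 promoters of the table and in the members Acta2 and Eng. The ACGTG core was present in 19.6% of all promoters and in Col1a2, Mfsd2a, Slc2a1 and Vegfa among the members. These matches describe the sequence only.

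All members were detected in the SC, and 34 of the 39 had a median of at least 2 CPM. QuantSeq gives about 1 read per transcript, so these levels were compared between genes without dividing by length. The highest medians belonged to Col1a2 (240.1 CPM, 114 to 620 over 41 libraries), which encodes a chain of type I collagen, Acta2 (183 CPM, 93.4 to 443), the smooth muscle actin, and Col1a1 (140.5 CPM, 67.6 to 359), the other chain of type I collagen. Rgs5, a regulator of G-protein signalling enriched in pericytes, followed with 94.6 CPM (37.0 to 146). Among endothelial genes the order was led by Ly6a (79.5 CPM), a surface antigen, Slc2a1 (59.4 CPM, 38.2 to 152), the glucose transporter GLUT1, Itm2a (49.99 CPM), a membrane protein, and Flt1 (40.0 CPM, 21.6 to 66.7). Transporters of the barrier had medians of 34.6 CPM (Slco1a4, organic anions), 27.1 CPM (Abcb1a, P-glycoprotein), 21.2 CPM (Abcg2, a drug efflux pump) and 20.4 CPM (Mfsd2a, a lysolipid transporter), whose ranges overlapped. The phosphatase gene Ptprb, the secreted proteins Egfl7 and Pltp, the VEGF receptor Kdr, the adhesion genes Pecam1, Cdh5 and Esam and the pericyte aminopeptidase Anpep lay between 8.99 and 17.7 CPM. Pdgfrb, the receptor through which PDGF-B holds pericytes, Emcn, Eng, Tek, Vwf, Myh11 and Sox17 lay between 3.23 and 6.46 CPM, and Erg, an endothelial transcription factor, at 1.89 CPM. The tight junction gene Cldn5 had a median of 7.00 CPM (3.35 to 12.5) and the adherens junction gene Cdh5 10.8 CPM. The lowest medians were those of Lum (1.80 CPM, 38 of 41 libraries with reads), a collagen-binding proteoglycan, Tie1 (1.42 CPM, 40 libraries), an orphan receptor that modulates TEK, Des (0.613 CPM, 33 libraries), the intermediate filament desmin, and Sox18 (0.322 CPM, 28 libraries), an endothelial transcription factor. A count of 3 reads corresponds to 0.708 to 1.70 CPM in a single SC library, so the last pair lay below the level that a single library resolves.

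**Figure D1:**
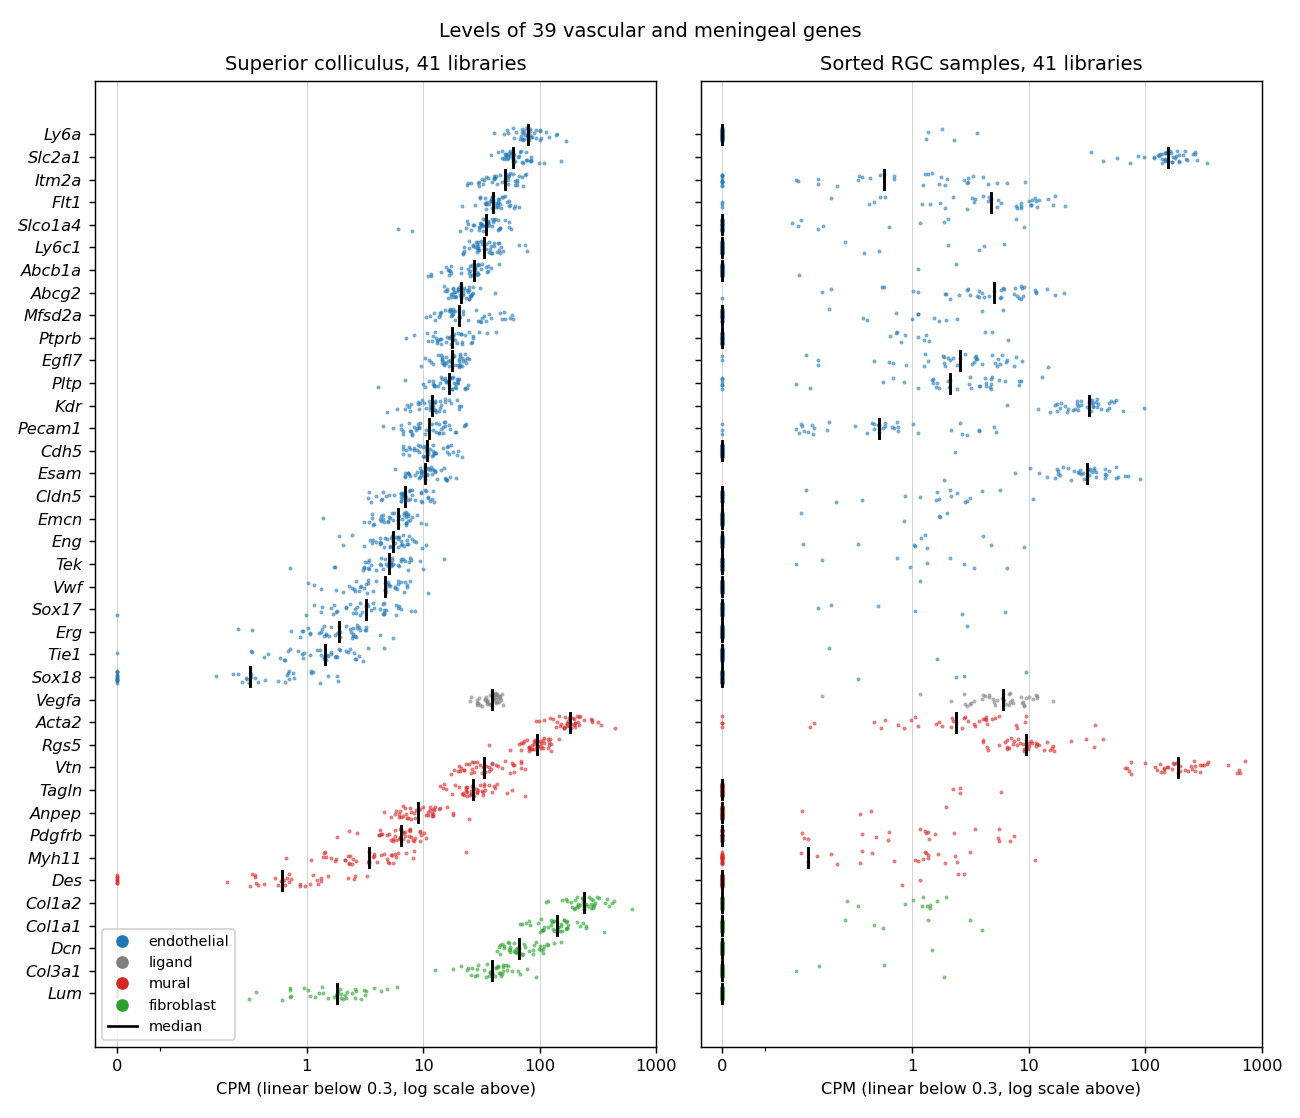
Level of each of the 39 genes in the 41 SC libraries and the 41 RGC libraries, in CPM on an axis that is linear below 0.3 CPM and logarithmic above. Points are libraries, coloured as endothelial, ligand, mural or fibroblast, and black bars are medians. In the SC, Col1a2 (median 240.1 CPM), Acta2 and Col1a1 lie highest and Sox18 (0.322 CPM) lowest, whereas in RGCs Vtn and Slc2a1 lie far above the other genes and many fall to 0.

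The RGC libraries kept a different and smaller set. Only 6 members had reads in all 41 libraries, namely Vtn, Slc2a1, Kdr, Esam, Rgs5 and Vegfa. Full-length reads scale with transcript length, so levels were compared per kilobase of exon: median CPM per kilobase was 94.3 for Vtn, the adhesive protein vitronectin, 44.6 for Slc2a1, 10.9 for Esam, an adhesion molecule, 3.67 for Kdr, the main VEGF receptor, 2.09 for Rgs5, 1.40 for Vegfa and 1.07 for Acta2. Several genes that define the barrier and vessels had reads in few libraries, although others, such as Kdr and Esam, did not. Cldn5 had reads in 17 of 41 libraries, Slco1a4 in 11, Ly6c1 in 7, Cdh5 in 1 and Vwf in 1. Fibroblast genes had reads in few libraries as well, with reads for Col1a2 in 11 libraries, Col1a1 in 6, Col3a1 in 4 and Dcn in 1, and none for Lum, which allows a level of up to 0.0146 CPM over all libraries together by counting error. Vtn and Slc2a1 were thus abundant in libraries where the other pericyte and barrier genes were not. Among the remaining members the number of libraries with reads was 40 for Abcg2, 39 for Egfl7, 38 for Pecam1 and Flt1, 37 for Acta2, 35 for Pltp, 31 for Itm2a, 22 for Myh11, 20 for Pdgfrb and 13 or fewer for the others.

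Ocular hypertension alone moved no member past the threshold in the SC. The question here is whether raised pressure in 1 eye changes vessel genes in the colliculus that receives most of its axons. Genes were tested when more than 5 reads were present in at least 2 samples, which left out Sox18 in all SC comparisons and Des where OHT + DREADD was compared with 1 other group. A gene was called when its adjusted p in edgeR's quasi-likelihood test was at most 0.1 and its log2 difference was at least 0.5 in the SC or 1.3 in RGCs, which are the limits the study used. Of 38 members tested, 0 were called, against 0.0193% of all 15578 genes. DESeq2, a likelihood ratio test and limma-voom called 0 members as well. At an unadjusted p under 0.05 there were 1 higher and 4 lower members, against 4.95% of all genes. Most log2 differences were small and negative: in OHT, 32 of 38 members were lower than in SHAM, against 50.2% of all genes, with a median log2 difference of -0.18 beside -0.00081 over all genes. By role, 18 of 24 endothelial genes (median -0.16), 8 of 8 mural genes (-0.20) and 5 of 5 fibroblast genes (-0.16) were lower, as was Vegfa. In lysate, fewer cells of a type and less RNA per cell cannot be told apart. Library totals differed too, with medians of 2724518.5 counts in SHAM and 3126699 in OHT. With group means removed, r of members with the total ran from -0.62 for Col1a1 to 0.58 for Pecam1. The part of library size in these signs was not tested. Some members vary together, as described below, so the signs are not independent.

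The smallest p in that comparison belonged to Ptprb, Mfsd2a and Myh11. Ptprb encodes the phosphatase that restrains TEK, and ranged from 10.8 to 41.8 CPM in SHAM (median 21.1) and from 7.07 to 27.0 CPM in OHT (median 17.1). The groups overlapped over most of their range, and the log2 difference was -0.53 (SE 0.20, 95% CI -0.94 to -0.12, edgeR adjusted p = 0.956). Mfsd2a had the opposite sign, with 14.4 to 28.7 CPM in SHAM (median 17.5) and 12.4 to 58.5 CPM in OHT (median 18.2), with a log2 difference of 0.59 (SE 0.23, 95% CI 0.12 to 1.06, edgeR adjusted p = 0.956). The medians were nearly equal and the difference lay in the upper part of the OHT group. Myh11, the smooth muscle myosin heavy chain, ranged from 1.41 to 23.2 CPM in SHAM (median 5.18) and from 1.39 to 5.80 CPM in OHT (median 3.71). Its log2 difference of -0.81 (SE 0.32, edgeR adjusted p = 0.956) fell to -0.37 without SHAM 2, the library at 23.2 CPM.

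**Figure D2:**
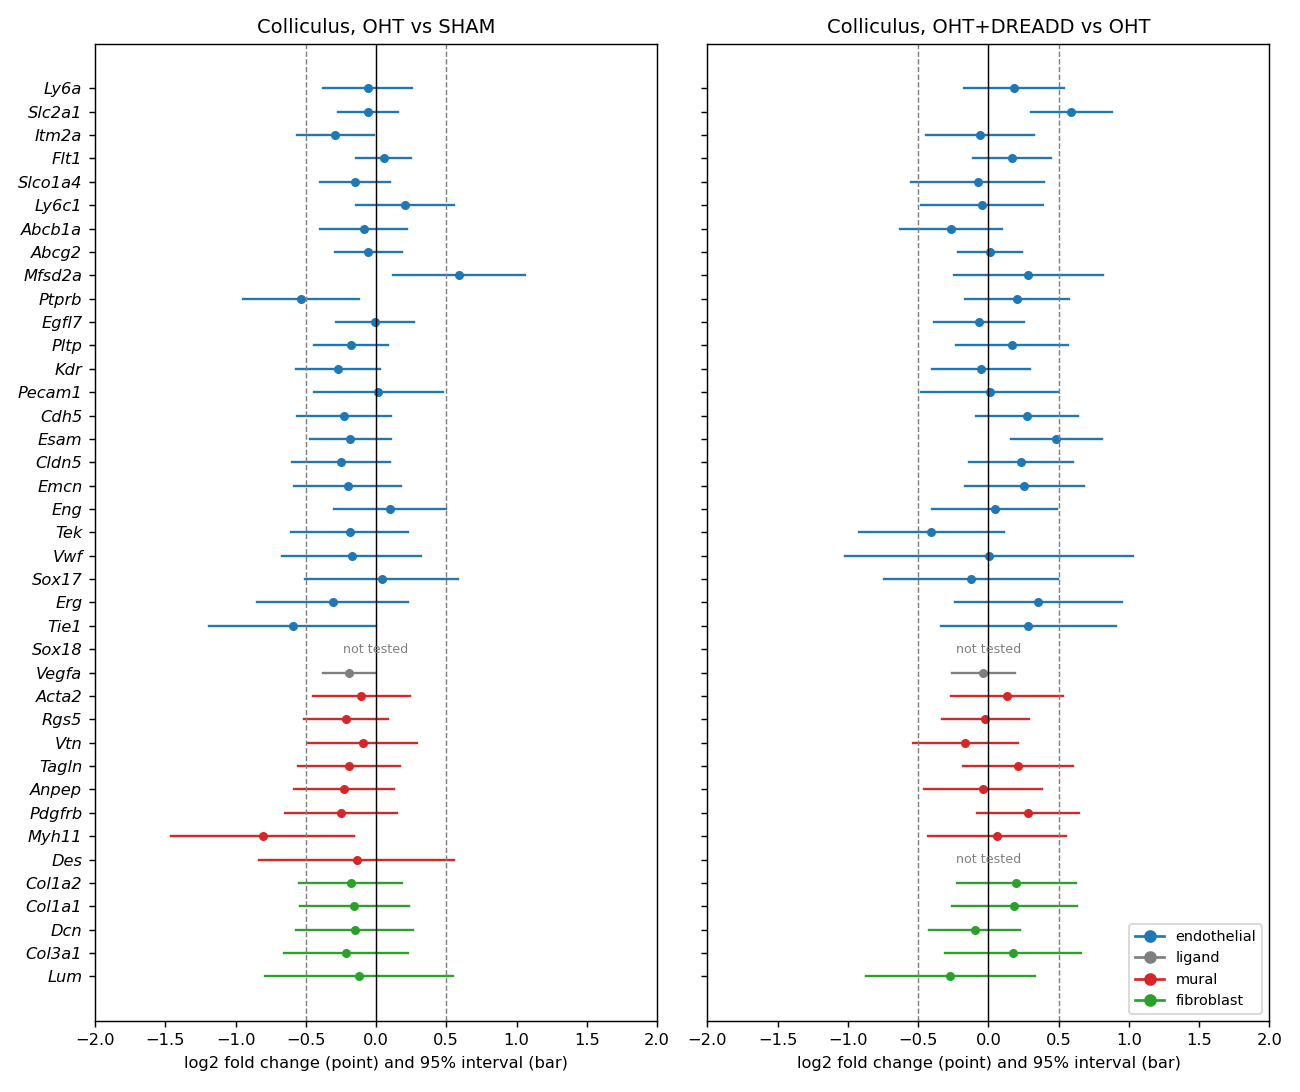
Log2 difference and 95% confidence interval of each member tested in the SC, for OHT against SHAM on the left and OHT + DREADD against OHT on the right, coloured by role, with dashed lines at the fold threshold of 0.5. In OHT against SHAM 32 of 38 members lie left of 0, and in OHT + DREADD against OHT the intervals of Slc2a1 and Esam lie right of 0.

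Chemogenetic stimulation without ocular hypertension likewise left 0 of 38 members called, against 0.0842% of 15433 genes, and DESeq2, the likelihood ratio test and limma-voom also called 0. At an unadjusted p under 0.05 there were 0 higher and 4 lower members, against 9.54% of all genes. The direction was mixed, with 13 members higher and 25 lower (median -0.070, beside 0.0045 over all genes). The 4 lower members were Myh11, Ptprb, Tek and Vegfa. Myh11 ranged from 0.660 to 8.10 CPM in SHAM + DREADD (median 2.12), a log2 difference of -1.03 from SHAM (SE 0.34, edgeR adjusted p = 0.355) that became -0.60 without SHAM 2. Ptprb ranged from 11.0 to 26.7 CPM there (median 15.3), with a log2 difference of -0.51 (SE 0.18, edgeR adjusted p = 0.362) that was -0.77 (adjusted p = 0.454) with sex as a covariate. In OHT + DREADD, Myh11 ranged from 2.28 to 5.51 CPM (median 3.40) and Ptprb from 11.96 to 26.3 CPM (median 18.3). Tek, the angiopoietin receptor, ranged from 3.45 to 15.1 CPM in SHAM (median 5.91) and from 1.70 to 6.18 CPM in SHAM + DREADD (median 4.65). Its log2 difference was -0.49 (SE 0.21, edgeR adjusted p = 0.456). These genes overlapped between the groups, and the 10 females of SHAM + DREADD stood against a SHAM group of 8 males and 2 females.

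In the comparison of OHT + DREADD with OHT, which asks what stimulation adds in hypertensive animals, the member closest to the threshold was Slc2a1, the gene that gives the brain's endothelium its glucose transporter. Slc2a1 ranged from 38.2 to 83.9 CPM in OHT (median 53.4) and from 58.6 to 152 CPM in OHT + DREADD (median 77.7), whereas SHAM ran from 43.8 to 75.8 CPM (median 57.9) and SHAM + DREADD from 47.1 to 84.8 CPM (median 59.2). The OHT + DREADD group overlapped the other groups in its lower part and held the highest libraries of the tissue. The log2 difference between OHT + DREADD and OHT was 0.59 (SE 0.14, 95% CI 0.30 to 0.88, p = 0.000241), and its edgeR quasi-likelihood adjusted p of 0.157 missed the threshold. So 0 of 37 members were called there, against 0.0956% of 15694 genes, while 2 were higher and 0 lower at an unadjusted p under 0.05, against 7.39% of all genes. The study reported more changed genes for this comparison than were called here. It listed Slc2a1 among the targets of regulators it predicted as active, with an adjusted p limit of 0.1. Whether Slc2a1 was called here depended on the test. Slc2a1 passed with the likelihood ratio test (log2 0.59, adjusted p = 0.033), DESeq2 (0.60, adjusted p = 0.067), 1 edgeR fit of all 4 groups (0.58, adjusted p = 0.037) and edgeR with sex as a covariate (0.72, adjusted p = 0.0048), and it did not with limma-voom (0.54, adjusted p = 0.271). Over all alternatives the log2 difference ran from 0.46 to 0.72 and the adjusted p from 0.0048 to 0.40. Leaving out OHT 11, OHT + DREADD 5 or OHT + DREADD 6 also made it pass (0.63 to 0.64, edgeR adjusted p 0.060 to 0.084). The lowest value came from leaving out OHT + DREADD 2, the library at 152 CPM.

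The higher Slc2a1 libraries of OHT + DREADD were the males. The 5 males ranged from 82.7 to 152 CPM (median 99.5) and the 5 females from 58.6 to 72.7 CPM (median 61.2), without overlap. In OHT, 9 males ranged from 50.4 to 83.9 CPM and the 2 females were at 38.2 and 60.5 CPM. In SHAM, 8 males ranged from 43.8 to 75.8 CPM (median 59.3) and the 2 females were at 54.8 and 56.8 CPM. The 10 females of SHAM + DREADD ranged from 47.1 to 84.8 CPM (median 59.2), so the highest of them lay above the lowest OHT + DREADD male. Mfsd2a, which keeps transcytosis low in the barrier endothelium, ranged from 29.7 to 59.2 CPM in the OHT + DREADD males (median 47.4) and from 12.6 to 34.6 CPM in the females (median 24.1), so the sexes overlapped. It ranged from 13.9 to 58.5 CPM in the OHT males (median 21.9) and was at 12.4 and 13.9 CPM in the OHT females. The SHAM males ranged from 14.4 to 28.7 CPM (median 17.5), the SHAM females were at 16.5 and 21.9 CPM, and the females of SHAM + DREADD ranged from 10.6 to 56.1 CPM (median 20.5). Over both sexes OHT + DREADD ran from 12.6 to 59.2 CPM of Mfsd2a (median 31.0). These values are a description of small subsets defined after the data were seen, and a difference in response between the sexes was not tested.

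Esam, an adhesion molecule of endothelial junctions, was the other member whose interval lay above 0. It ranged from 5.76 to 15.1 CPM in SHAM (median 11.2), 7.02 to 12.6 CPM in OHT (median 9.67), 7.03 to 11.9 CPM in SHAM + DREADD (median 9.46) and 7.00 to 19.1 CPM in OHT + DREADD (median 15.6). The OHT + DREADD median lay above every library of OHT and SHAM + DREADD, although its lowest libraries were within their range. The log2 difference was 0.48 from OHT (SE 0.16, 95% CI 0.16 to 0.81, edgeR adjusted p = 0.526) and 0.53 from SHAM + DREADD (SE 0.16, edgeR adjusted p = 0.547). Tek, lowest in OHT + DREADD with 0.711 to 9.88 CPM (median 3.40) beside 3.15 to 9.42 CPM in OHT (median 5.33), differed by -0.41 from OHT (SE 0.25, edgeR adjusted p = 0.73), and by -0.65 with limma-voom and -0.63 without OHT + DREADD 7. Over the members tested against OHT, 23 were higher and 14 lower, with a median of 0.063 beside 0.019 over all genes.

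**Figure D3:**
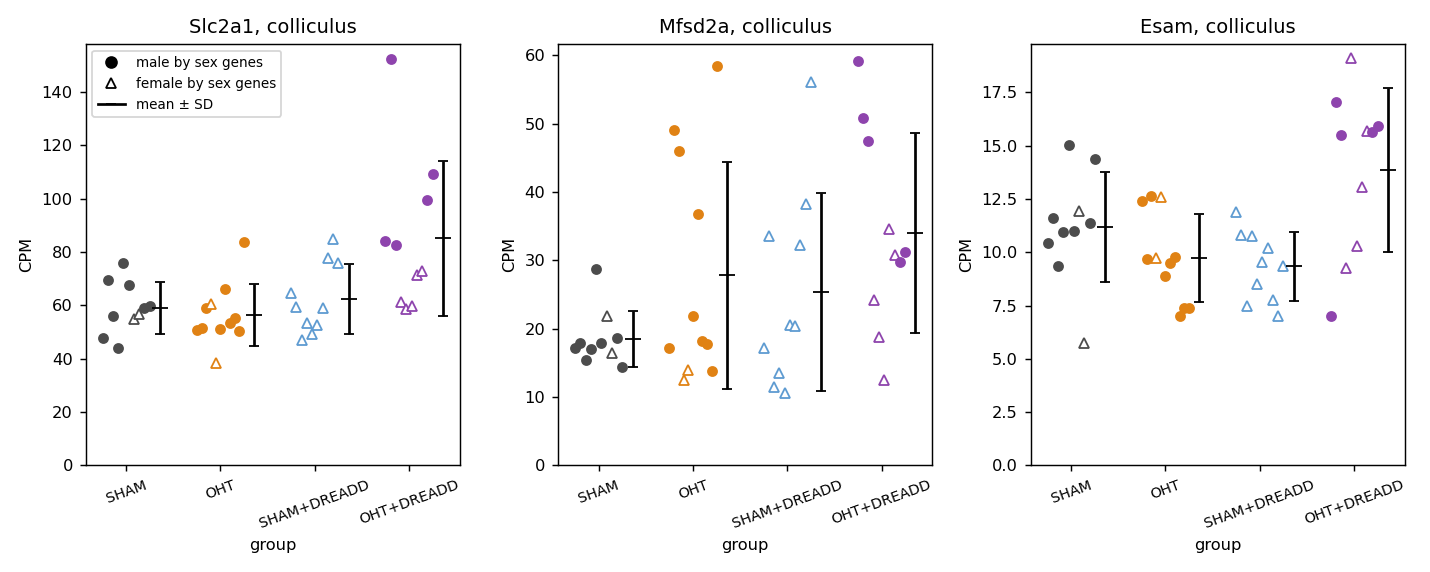
CPM of Slc2a1, Mfsd2a and Esam in each SC library by group (10 to 11 libraries), filled circles for males and open triangles for females by their sex genes, with the mean and SD of each group beside its points. OHT + DREADD holds the highest Slc2a1 library, at 152 CPM, its 5 males lie above its 5 females, and its Esam libraries reach 19.1 CPM where OHT stops at 12.6 CPM.

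Ocular hypertension under stimulation, OHT + DREADD against SHAM + DREADD, called 0 of 37 members, against 0.0192% of 15592 genes, and DESeq2, the likelihood ratio test and limma-voom called 0. There were 2 higher and 1 lower at an unadjusted p under 0.05, against 7.13% of all genes. The 3 were Esam, Slc2a1 (log2 0.45, SE 0.14, edgeR adjusted p = 0.547) and Abcg2 (log2 -0.27, SE 0.13, edgeR adjusted p = 0.70). With sex as a covariate the Slc2a1 value was 0.068 (edgeR adjusted p = 0.977). Abcg2 ranged from 17.2 to 41.3 CPM in SHAM + DREADD (median 25.4) and from 16.3 to 24.8 CPM in OHT + DREADD (median 20.2), and its other groups had medians of 20.1 CPM in SHAM (15.1 to 31.0) and 19.9 CPM in OHT (15.3 to 24.5). Here 14 members were higher and 23 lower, with a median of -0.056 beside 0.0086 over all genes.

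A fit of all 4 groups gave the averaged effects and their interaction, and these share libraries with the comparisons above. For OHT averaged over stimulation 0 of 38 members were called, against 0% of 16169 genes, with 2 higher and 1 lower at an unadjusted p under 0.05 (4.68% of all genes). Those were Mfsd2a (log2 0.51, SE 0.18, edgeR adjusted p = 0.957), Slc2a1 (0.19, SE 0.094) and Kdr (-0.30, SE 0.13). With sex as a covariate Mfsd2a was at 0.29 and Slc2a1 at 0.071. Kdr ranged from 8.96 to 19.3 CPM in SHAM (median 13.3), 7.26 to 17.2 CPM in OHT (median 11.4), 5.95 to 21.01 CPM in SHAM + DREADD (median 11.9) and 4.89 to 15.1 CPM in OHT + DREADD (median 12.1), so all groups overlapped. For stimulation averaged over OHT 0 members were called, against 0.118% of genes, with 2 higher and 2 lower at an unadjusted p under 0.05 (8.16% of all genes). Slc2a1 led with 0.33 (SE 0.094, edgeR adjusted p = 0.286), and Tek (-0.46, SE 0.17) and Myh11 (-0.49, SE 0.22) had negative values. With sex as a covariate, an alternative added after the data were seen, 2 members passed in this contrast, Slc2a1 (0.54, edgeR adjusted p = 0.0046) and Mfsd2a. For the interaction 0 members were called, against 0.0433% of genes, with 4 higher and 0 lower at an unadjusted p under 0.05 (7.94% of all genes): Esam (0.70, SE 0.21, edgeR adjusted p = 0.37), Slc2a1 (0.50, SE 0.19), Ptprb (0.70, SE 0.27) and Myh11 (1.08, SE 0.45). The Slc2a1 interaction was 0.29 with sex as a covariate. DESeq2 and limma-voom called 0 members in all 3 contrasts.

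The remaining genes that define the compartments of the SC overlapped between groups. Flt1, the VEGF receptor that acts as a decoy, had medians of 39.5 CPM in SHAM (31.0 to 50.6), 39.02 CPM in OHT (35.6 to 54.2), 39.3 CPM in SHAM + DREADD (28.1 to 55.8) and 45.0 CPM in OHT + DREADD (21.6 to 66.7). Cldn5 had medians of 7.90 (3.46 to 12.2), 6.74 (4.82 to 9.67), 6.84 (3.35 to 11.9) and 7.98 CPM (3.59 to 12.5) in the same order of groups. Slco1a4 had medians of 37.6 (23.7 to 50.6), 31.6 (24.1 to 54.3), 33.8 (23.3 to 54.9) and 31.3 CPM (6.05 to 57.3), and the value of 6.05 CPM was the lowest of the tissue. These 3 genes overlapped in all groups, and so did Ly6c1, a surface antigen of brain endothelium, at 33.2 (24.9 to 44.8), 31.9 (22.2 to 74.7), 31.6 (24.8 to 48.0) and 37.7 CPM (21.8 to 78.4). Ly6c1 and Ly6a have close copies in the genome and reads that mapped to several places were discarded, so their levels are uncertain. Vegfa, the ligand, had medians of 41.9 (37.2 to 47.8), 39.8 (26.0 to 45.4), 35.3 (25.2 to 46.8) and 36.1 CPM (29.1 to 48.7), with log2 differences from SHAM of -0.19 in OHT and -0.20 in SHAM + DREADD.

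Among mural genes Rgs5 had medians of 104 CPM in SHAM (73.2 to 146), 90.7 CPM in OHT (37.0 to 124), 96.0 CPM in SHAM + DREADD (81.1 to 119) and 85.4 CPM in OHT + DREADD (56.1 to 126). Vtn, made in brain by pericytes, had medians of 34.1 (23.4 to 68.9), 36.9 (20.3 to 59.8), 24.4 (18.4 to 75.1) and 32.7 CPM (17.2 to 60.1). Acta2 had medians of 188 (122 to 274), 174 (93.4 to 285), 199 (151 to 337) and 167 CPM (138 to 443), and Tagln, an actin-binding protein of smooth muscle, 31.8 (13.8 to 42.9), 23.7 (14.9 to 41.4), 30.7 (22.1 to 58.1) and 25.4 CPM (17.7 to 75.4). The ranges overlapped throughout. The collagen genes were spread as widely within groups. Col1a1 had medians of 147 (81.2 to 211), 126 (67.6 to 236), 160 (108 to 252) and 131 CPM (101 to 359), and Col1a2 of 250.2 (170 to 380), 203 (114 to 435), 269 (216 to 423) and 227 CPM (191 to 620.1). Dcn, the proteoglycan decorin, had medians of 66.3 (45.6 to 153), 67.1 (44.9 to 118), 71.6 (43.5 to 108) and 65.9 CPM (45.5 to 107). Within each group the lowest and highest colliculus thus differed by more than the medians of the groups did, and OHT + DREADD 10 was the highest library for Acta2, Tagln, Col1a1 and Col1a2.

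Other genes of the same pathways, from lists that share no gene with the 39, gave 0 called genes in the 4 SC comparisons of 2 groups. In OHT against SHAM the counts of higher and lower genes were 4 and 7 for ligands of the VEGF, angiopoietin and PDGF families, 3 and 9 for Notch, Norrin and Wnt genes of vessels, 3 and 12 for other barrier transporters, and 2 and 7 for other junction genes. They were 7 and 14 for other endothelial genes, 5 and 8 for other pericyte genes, 1 and 9 for other smooth muscle genes and 5 and 18 for other fibroblast and meningeal genes, with list medians between -0.18 and -0.041 on the log2 scale. In OHT + DREADD against OHT the other barrier transporters had 11 higher and 4 lower (median 0.14) and the other endothelial genes 14 higher and 7 lower (median 0.13). Robo4, a receptor of endothelial cells, had the lowest p of the latter list (p = 0.00019, edgeR adjusted p = 0.148). In OHT + DREADD against SHAM + DREADD 21 of 23 other fibroblast and meningeal genes were lower, with a median of -0.22, and none passed the test. Over all genes 8100 were higher and 7492 lower in that comparison, with a median of 0.0086. The summed level of that list ran from 1323 to 6857 CPM in SHAM + DREADD and from 1621 to 5669 CPM in OHT + DREADD, with most of it from Ptgds, and the part of meningeal tissue in the lysates was not tested. Dll4, the Notch ligand of arterial and tip cells, had the lowest p of the Notch, Norrin and Wnt list in that comparison (p = 0.00031, edgeR adjusted p = 0.394).

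From colliculus to colliculus the members were only loosely tied by cell type. Log2(CPM + 1) was centred on group means, and Pearson's r over 41 libraries was taken for the 561 pairs of the 34 members with a median of at least 2 CPM. The median r was 0.055, and 41 pairs exceeded 0.5. Endothelial genes were as loosely tied to each other (231 pairs, median 0.067, -0.56 to 0.69) as mural genes were (21 pairs, median 0.079, -0.39 to 0.87). Counting error draws r towards 0 for genes with few reads. Cldn5 had 9 to 39 counts per library and Cdh5 17 to 60, beside 310 to 968 for Acta2. The part of counting error in the low values was not tested. Fibroblast genes were tied more closely (6 pairs, median 0.52), and 10 of the 28 pairs of a fibroblast and a mural gene exceeded 0.5. A block of 8 genes held 27 of the 41 pairs: Acta2, Tagln and Anpep, an aminopeptidase of pericytes and meninges, from the mural list, Col1a1, Col1a2 and Col3a1 from the fibroblast list, and Ly6a and Cdh5 from the endothelial list. Their 28 pairs ran from 0.48 to 0.96. The 8 genes were chosen from these values, which are given as a description.

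**Figure D4:**
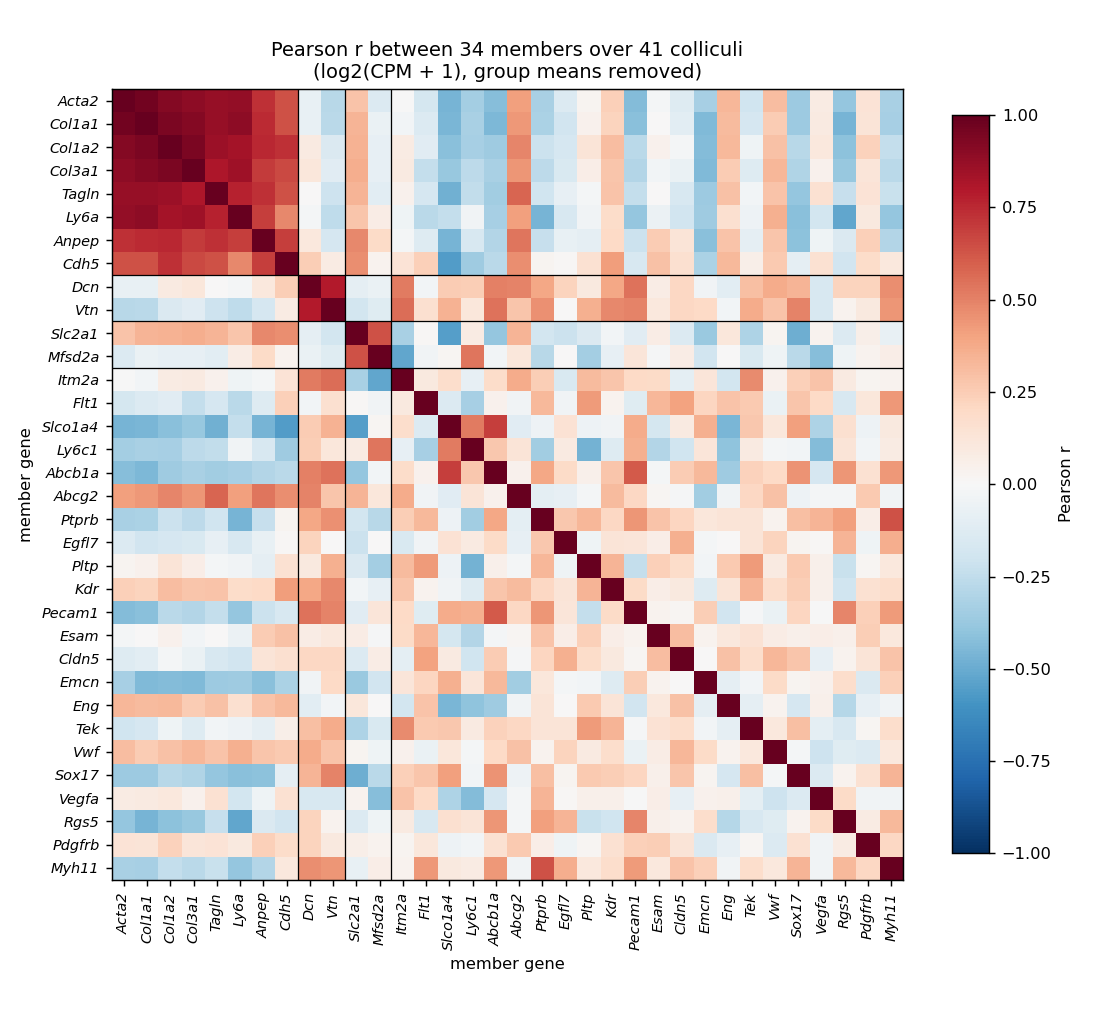
Pearson's r between members over 41 SC libraries, on log2(CPM + 1) centred on group means, for the 34 members with a median of at least 2 CPM. Red is positive and blue negative, and lines set off the sets described in the text. The square at the upper left joins smooth muscle, collagen and 2 endothelial genes, with 27 of 28 pairs above 0.5, and little structure stands outside it.

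Fixed pairs were tested by 100000 permutations within groups, 15 per tissue with Benjamini-Hochberg adjustment, and passed at an adjusted p of at most 0.05. In the SC 3 passed, each with an adjusted p of 5e-05. Acta2 and Tagln gave r 0.87 (rho 0.85) and 0.81 without the 2 libraries farthest from the median of the first gene. Acta2 and Col1a2 gave r 0.91 (rho 0.86, 0.88 without those libraries), and Col1a1 and Col1a2 gave r 0.94 (rho 0.90, 0.92). Smooth muscle actin thus followed type I collagen, but not the smooth muscle myosin: Acta2 and Myh11 gave r -0.33 and rho -0.45 (permutation adjusted p = 0.070 and 0.020). Myh11 had only 2 to 66 counts per library. Of 10 other smooth muscle genes, 8 correlated positively with Acta2 (-0.20 to 0.94, median 0.59). Rgs5 and Acta2 gave r -0.39 (permutation adjusted p = 0.070), and Cldn5 and Flt1 0.41 (permutation adjusted p = 0.065). Cldn5 had r of 0.093 with Slco1a4, 0.037 with Rgs5, -0.13 with Acta2 and -0.021 with Col1a2, and none of these passed. Within the fibroblast list Col1a2 and Dcn gave only 0.087.

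The block followed genes of macrophages and part of the other fibroblast list. Of 23 other fibroblast and meningeal genes, 14 correlated positively with Acta2 (-0.52 to 0.97, median 0.14), with Bgn at 0.94 and Col5a2 at 0.92. Among 13490 genes ranked by likeness, those near Acta2 included Lyz2, lysozyme (r 0.97, rho 0.95, 0.97 without the 2 farthest libraries, 0.92 to 0.99 within the 4 groups), Gpnmb, a glycoprotein of activated macrophages (0.97), Cybb, a subunit of phagocyte NADPH oxidase (0.98), Lgals3, galectin 3 (0.97), Fn1, fibronectin (0.97), and Spp1, osteopontin (0.93). Also near it were Acod1 (0.98) and Saa3 (0.97), which activated macrophages switch on in inflammation. Lyz2 gave r of 0.97 with Col1a1, 0.91 with Col3a1, 0.90 with Col1a2, 0.88 with Ly6a, 0.84 with Tagln, 0.70 with Anpep and 0.61 with Cdh5. It gave -0.40 with Myh11, -0.45 with Rgs5, -0.16 with Dcn, -0.13 with Cldn5 and -0.15 with Flt1, which are other genes of contractile, pericyte, fibroblast and endothelial cells. Lyz2 itself was abundant in all 41 colliculi, at 557 to 3116 CPM (median 1260), and Gpnmb ran from 168 to 1099 CPM. Saa3 at 119 to 660 CPM (median 253) and Acod1 at 94.99 to 591 CPM (median 214) were also present in all 41, and both had no reads in any RGC library. The ratio of Acta2 to Lyz2 stayed within 0.126 to 0.212, a coefficient of variation of 10.4% where counting alone gives 4.70%. The ratio of Acta2 to Myh11 ran from 8.98 to 484, a coefficient of variation of 102% where counting alone gives 37.3%. Of 11 microglia genes, 9 correlated positively with Acta2 (-0.21 to 0.93, median 0.78), and their summed level was 440 to 753 CPM in SHAM, 395 to 833 CPM in OHT, 562 to 918 CPM in SHAM + DREADD and 486 to 1145 CPM in OHT + DREADD. Csf1r, the receptor for a macrophage growth factor, gave 0.93, but Tmem119 and P2ry12, which mark resident microglia, gave 0.15 and -0.21. Of 7 genes of perivascular macrophages 5 were positive (-0.19 to 0.93, median 0.26), with sums of 59.6 to 113, 44.8 to 158, 68.7 to 169 and 59.6 to 175 CPM in the same order of groups, and all microglia genes and at least 5 perivascular macrophage genes had reads in every library of every group. The block was lower in larger libraries, Acta2 having r of -0.58 with the total count, and given that total its r with Lyz2 was still 0.96. The part of these cells and of library size in the Acta2 and collagen levels was not tested, nor was whether all of this RNA came from collicular tissue, so these are levels of the lysate libraries, and every colliculus had received a vector injection, so an uninjected level is not part of the comparison.

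**Figure D5:**
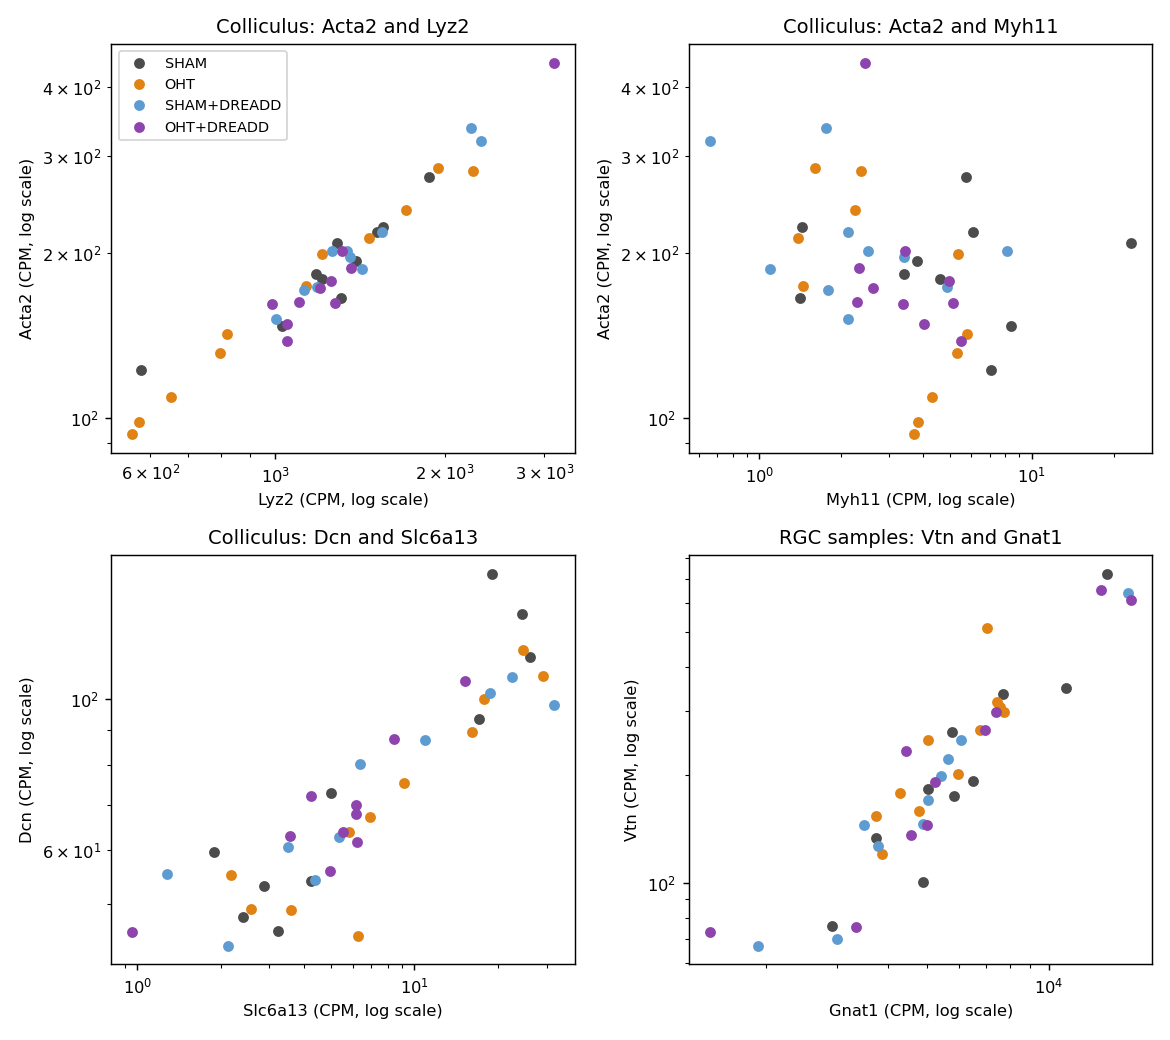
CPM of a member (vertical axis) against CPM of another gene (horizontal axis), both on log scales, 1 point per library coloured by group. Acta2 follows Lyz2 in the SC (r 0.97 after centring on group means) and does not follow Myh11 (-0.33), Dcn follows Slc6a13 (0.91), and in RGCs Vtn follows the rod gene Gnat1 (0.93).

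Another and smaller set joined Dcn, Vtn and Lum with genes of the meninges. Dcn gave r of 0.91 with Slc6a13, a GABA transporter of leptomeningeal cells (rho 0.90, 0.91 without the 2 farthest libraries), 0.88 with Slc22a6, an anion transporter of the meninges, 0.83 with Aldh1a2, which makes retinoic acid there, and 0.85 with Ptgds, prostaglandin D synthase. These are among the closest of the 23 other fibroblast and meningeal genes, of which 18 correlated positively with Dcn (-0.27 to 0.91, median 0.50). Vtn gave 0.80 with Dcn (rho 0.77, 0.70 to 0.97 within groups) and 0.81 with Ptgds, against 0.037 with the pericyte gene Rgs5. Rgs5 did not stand for all pericyte genes, since Vtn gave 0.55 with the summed list of other pericyte genes. With the summed list of other fibroblast and meningeal genes it gave 0.78. Lum gave 0.68 with Dcn. Slc6a13 ran from 0.960 to 31.8 CPM over the colliculi (median 6.13) and Ptgds from 580.2 to 6887 CPM, so the level of these meningeal genes differed widely between lysates, and its part in the levels of Dcn, Vtn and Lum was not tested.

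Barrier transporters fell into pairs that did not go together. Slc2a1 and Mfsd2a gave r of 0.64 (rho 0.64, 0.67 without the 2 farthest libraries). Slc2a1 gave 0.70 with Sgk1, a kinase that glucocorticoids induce, and 0.71 with Errfi1, an inhibitor of EGF receptor signalling, and Mfsd2a gave 0.65 with Sgk1, 0.82 with Plin4, a lipid droplet protein, and 0.69 with Zbtb16, a transcription factor. Mfsd2a also gave 0.74 with Glul and 0.68 with Gjb6, genes of the glia lists. With the summed Müller glia list r was 0.76 for Slc2a1 and 0.55 for Mfsd2a, and with the astrocyte list -0.12 and 0.11. Müller glia are cells of the retina, so in the SC that list does not measure them. Apoe made up 39.8% of its SC sum, which also gave 0.43 with Acta2. The part of glia in these levels was not tested. Slco1a4 followed the efflux pump Abcb1a (0.69), but Slc2a1 gave -0.55 with Slco1a4 and -0.39 with Abcb1a, and Mfsd2a gave 0.016 and -0.024 with them. Ptprb followed Myh11 (0.64). These pairs were picked after the values were seen and carry no test.

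In RGCs the few genes in all libraries overlapped between groups. Kdr had medians of 36.4 CPM in SHAM (25.9 to 56.4), 25.7 CPM in OHT (6.45 to 48.5), 35.4 CPM in SHAM + DREADD (18.4 to 96.6) and 22.7 CPM in OHT + DREADD (12.1 to 65.0). In the same order Vtn had medians of 187 (76.1 to 725), 249.6 (121 to 511), 158 (66.9 to 639) and 212 CPM (73.2 to 654), and Slc2a1 of 157 (34.2 to 269), 173 (86.4 to 267), 148 (57.2 to 276) and 162 CPM (43.3 to 338). Esam had medians of 30.1 (10.3 to 56.5), 27.1 (7.57 to 48.4), 38.9 (17.8 to 71.8) and 30.5 CPM (1.85 to 89.5), and Rgs5 of 8.80 (4.05 to 43.6), 8.82 (4.08 to 14.2), 10.7 (4.36 to 35.98) and 9.49 CPM (4.48 to 16.6). Vegfa had medians of 5.26 (0.231 to 11.7), 5.97 (3.93 to 11.8), 6.50 (2.13 to 16.2) and 5.73 CPM (2.83 to 9.10), Acta2 of 3.51 (0 to 9.51), 2.35 (0.464 to 4.86), 2.46 (0 to 36.8) and 1.45 CPM (0 to 7.98), and Flt1 of 3.66 (0.252 to 16.7), 4.72 (0 to 12.2), 3.77 (0 to 16.0) and 7.83 CPM (0 to 20.3). The library SHAM + DREADD 8 stood apart: it held 36.8 CPM of Acta2, where the next library had 9.51, together with 10.8 CPM of Cldn5 (64 counts), 11.3 CPM of Myh11, 5.74 CPM of Tagln, 9.12 CPM of Slco1a4 and 6.25 CPM of Sox17, an arterial transcription factor. Reads of the other members named here were scattered, with at most 6.06 CPM of Ly6c1 (7 libraries), 3.99 CPM of Col1a1 (6 libraries), 1.94 CPM of Col1a2 (11 libraries) and 1.46 CPM of Dcn (1 library).

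Tests of the RGC comparisons rested mostly on genes with reads in few libraries. In OHT against SHAM 0 of 30 members were called, against 0.0686% of 17491 genes, with 1 higher and 3 lower at an unadjusted p under 0.05 (5.77% of all genes). Directions were mixed, with 10 members higher and 20 lower (median -0.12, beside -0.020 over all genes). Kdr had a log2 difference of -0.56 (SE 0.23, edgeR adjusted p = 0.53). Tagln, with 16 and 8 reads in 2 OHT libraries and 0 in all SHAM libraries, had an edgeR adjusted p of 0.194, and Col1a1, with 17, 7 and 1 reads in 3 SHAM libraries and 2 in 1 OHT library, an adjusted p of 0.744. In SHAM + DREADD against SHAM 0 of 25 were called, against 0.0115% of 17439 genes, with 1 higher and 1 lower at an unadjusted p under 0.05 (5.17% of all genes). Those were Sox17, with 37 of its reads in SHAM + DREADD 8, 6 in SHAM + DREADD 5 and 1 in SHAM 8 (edgeR adjusted p = 0.452), and Des, with 20 and 15 reads in 2 SHAM libraries (edgeR adjusted p = 0.259). In OHT + DREADD against OHT 0 of 27 were called, against 0.0874% of 17160 genes, with 1 higher and 3 lower at an unadjusted p under 0.05 (8.47% of all genes). Sox18 had 15 and 11 reads in 2 OHT libraries and none in OHT + DREADD (edgeR adjusted p = 0.208), Emcn, a sialomucin of venous and capillary endothelium, 10 and 12 reads in 2 OHT libraries (edgeR adjusted p = 0.222), and Eng, the TGF-beta co-receptor endoglin, reads in 5 OHT + DREADD libraries and 1 OHT library (edgeR adjusted p = 0.30). In OHT + DREADD against SHAM + DREADD 0 of 24 were called, against 0.041% of 17088 genes, with 2 higher and 0 lower at an unadjusted p under 0.05 (7.23% of all genes). Those were Eng and Ly6a, whose reads lay in 2 OHT + DREADD libraries (edgeR adjusted p = 0.266 for both). DESeq2, the likelihood ratio test and limma-voom called 0 members in these 4 comparisons. The study reported more changed genes in RGCs for OHT against SHAM and for OHT + DREADD against OHT. With an adjusted p limit of 0.1, it listed Tagln in the former and Eng in the latter among targets of predicted regulators. In the libraries outside the comparisons just given, Emcn had 7, 5 and 1 reads in 3 libraries, Ly6a 25, 8 and 8 in 3, Des 5 and 4 in 2, Sox17 13, 3 and 1 in 3, Col1a1 18 and 3 in 2, and Tagln 34 and 15 in 2. The other vascular lists likewise had 0 genes called there.

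The fit of all 4 RGC groups called 2 members, Sox18 and Eng, and neither call was kept under all alternatives. For stimulation averaged over OHT 1 of 31 members was called, against 0.26% of 19234 genes, and 2 were higher and 5 lower at an unadjusted p under 0.05 (10.5% of all genes). This was Sox18, with 33 counts in SHAM 4 (9.40 CPM), 15 in OHT 7 (2.79 CPM), 11 in OHT 11 (2.35 CPM), 2 in SHAM + DREADD 8 (0.338 CPM) and none elsewhere. Its fitted log2 difference of -1.38 (SE 0.35, edgeR adjusted p = 0.026) depends on the prior count where a group is at 0, and without SHAM 4 it was -0.50 with an adjusted p of 1.00. Without OHT 7 or without OHT 11 it was smaller than the fold threshold. DESeq2, limma-voom, a stricter filter on low counts and sex as a covariate called 0 members in this contrast. Abcb1a, with 13 reads in SHAM 2, 6 in OHT 7 and 1 in OHT + DREADD 5, had an adjusted p of 0.072 in edgeR but missed the fold threshold (log2 -0.47, SE 0.14). For the interaction 1 of 31 was called, against 1.79% of genes, and 4 were higher and 2 lower at an unadjusted p under 0.05 (10.1% of all genes). This was Eng, with reads in SHAM 2 (1.28 CPM), SHAM 5 (4.05), OHT 2 (1.18), SHAM + DREADD 8 and 9 (0.338 and 0.188) and in 5 OHT + DREADD libraries (1.03, 4.75, 1.06, 9.01 and 1.34 CPM). Its log2 interaction was 3.11 (SE 0.97, edgeR adjusted p = 0.092). The call was lost without SHAM 2 (adjusted p = 0.12), SHAM 5 (2.34, adjusted p = 0.29) or any of OHT + DREADD 1, 2, 9 and 10 (2.44 to 3.16, adjusted p 0.10 to 0.20). Over all single libraries left out the log2 interaction ran from 2.34 to 3.45. DESeq2, limma-voom (2.72, adjusted p = 0.77), the stricter filter, sex as a covariate (1.80, adjusted p = 0.71) and an adjusted p of at most 0.05 in edgeR gave no call either. For OHT averaged over stimulation 0 of 31 members were called, against 0.307% of genes, with 2 higher and 4 lower at an unadjusted p under 0.05 (10.8% of all genes), and DESeq2 and limma-voom called 0. Slco1a4 had the lowest p (log2 -1.38, SE 0.45, edgeR adjusted p = 0.106), with 27 of its reads in SHAM 4, 54 in SHAM + DREADD 8 and 1 to 11 in each of 9 other libraries. From the other vascular lists the fit called Col5a2, a fibrillar collagen, for averaged stimulation, and Tpm2, a tropomyosin of muscle, Ndufa4l2, a pericyte gene, and Col6a3, a collagen of microfibrils, for the interaction.

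The abundant members of the RGC libraries followed retinal cells other than vessels. Vtn, which photoreceptors are known to express, gave r of 0.93 with the rod transducin gene Gnat1 (rho 0.93, 0.92 without the 2 farthest libraries, 0.85 to 0.97 within groups), 0.93 with Prph2, a disc rim protein of photoreceptors, and 0.87 with rhodopsin, and all 10 rod genes were positive with it (0.78 to 0.93). The rod genes summed to 16149 to 66665 CPM in SHAM, 20986 to 42253 CPM in OHT, 11013 to 82978 CPM in SHAM + DREADD and 14089 to 99497 CPM in OHT + DREADD, with all 10 detected in every library. Slc2a1 gave 0.70 with Vtn (0.45 to 0.85 within groups), 0.69 with Gnat1 (0.51 to 0.77) and 0.82 with Ldha, lactate dehydrogenase A (0.70 to 0.91). Kdr gave 0.70 with Slc1a3 (0.59 to 0.80 within groups) and 0.69 with Glul (0.57 to 0.81), the glutamate transporter and glutamine synthetase of Müller glia, and 7 of 8 Müller glia genes were positive with it (median 0.58). Those 8 genes summed to 1544 to 3588 CPM in SHAM, 1704 to 3607 CPM in OHT, 1284 to 5441 CPM in SHAM + DREADD and 2374 to 5830 CPM in OHT + DREADD, all present in every library. Kdr did not follow Müller glia genes alone. It gave 0.48 with their sum and 0.50 with the summed microglia list, and all 10 rod genes were positive with it (0.32 to 0.51). Without the 2 farthest libraries Kdr gave 0.56 with Slc1a3 and 0.57 with Glul. Esam gave 0.72 with Lrtm1 (0.40 to 0.96 within groups) and 0.66 with Gng13 (0.22 to 0.92). The part of these cells in the levels of Vtn, Slc2a1, Kdr and Esam was not tested. In the SC rod transcripts were nearly absent, Gnat1 having reads in 11 of 41 libraries. Of the 15 fixed pairs in RGCs only Cldn5 with the haemoglobin gene Hbb-bs passed (r 0.55, permutation adjusted p = 0.0159), while its rho did not (0.44, permutation adjusted p = 0.143) and r was 0.36 without the 2 farthest libraries.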

How the data were processed

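RNA was measured in 82 libraries from 2 tissues and 4 groups. The deposited tables hold raw counts per Ensembl gene, which the authors made from 50-base single reads with FastQC 0.11.7, HISAT2, SAMtools 1.5 and HTSeq 2.7.14 on mm10, discarding reads that mapped to several places. The annotation release and the use of strand are not given in the sources used here. Of 43629 identifiers 42462 matched a symbol.

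Counts were scaled by the trimmed mean of M values and tested with edgeR 4.0.16 (quasi-likelihood, R 4.3.3) after requiring over 5 reads in 2 or more samples, with Benjamini-Hochberg adjustment over all genes tested. Comparisons of 2 groups used those groups only, and averaged effects and the interaction used all 4. Fitted log2 values used a prior count of 2. Alternatives were DESeq2 1.42.0, limma 3.58.1 (voom), a likelihood ratio test, other filters, size factors and thresholds, a replicate block, sex, and left-out libraries. The edgeR fits were tested on simulated data with known changes. Correlations used log2(CPM + 1) centred on group means. No 2 libraries were duplicates, with the highest r between libraries of a tissue 0.920 in RGCs and 0.981 in the SC.

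Levels by group, or reads where few RGC libraries held any, are given for called members, for the 3 members of lowest p in each comparison and for 13 defining genes. Members, lists and tests were chosen with earlier results of these data known. Precision from counting is limited to 3 reads, 0.435 to 0.849 CPM in an RGC library, and such limits cover counting error only. Standard errors and intervals of edgeR log2 differences come from its quasi-likelihood test, whose dispersion includes variation between libraries. Libraries were biological replicates, each of 1 retina or 1 colliculus.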

Additional observations from a re-analysis of the deposited data

Results flagged for a closer look

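Of 78 groups examined, 16 had a highest or lowest library far from its neighbours by Dixon's criterion, where chance gives about 1 in 20 for normally distributed values. The OHT groups, with 11 libraries each, were not examined, so no OHT library could be flagged. Flags of genes that vary together are not independent. In the SC, OHT + DREADD 10 was the highest of its group for 4 genes of the Acta2 and collagen block: Acta2 at 443.5 CPM (next 201.7), Col1a1 at 359.4 CPM (next 156.7), Col1a2 at 620.1 CPM (next 286.3) and Tagln at 75.44 CPM (next 32.73). This library also had the lowest total count of the tissue, 1766207, and the highest summed microglia genes, 1145 CPM. In RGCs, SHAM + DREADD 8 was the highest of its group for Kdr at 96.63 CPM (next 49.18), Rgs5 at 35.98 CPM (next 15.99) and Vtn at 639.1 CPM (next 249.8), and it had the highest sums of rod and Müller glia genes of that group.

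The other single libraries were each high for 1 gene. In RGCs these were Slc2a1 in OHT + DREADD 8 at 337.7 CPM (next 194.1), Vegfa in SHAM + DREADD 5 at 16.16 CPM (next 8.952) and Vtn in SHAM 2 at 724.7 CPM (next 347.9). In the SC they were Abcg2 in SHAM + DREADD 1 at 41.26 CPM (next 26.72), Ly6c1 in OHT + DREADD 1 at 78.45 CPM (next 45.68), Mfsd2a in SHAM 5 at 28.7 CPM (next 21.9), Myh11 in SHAM 2 at 23.2 CPM (next 8.413), Ptprb in SHAM + DREADD 2 at 26.72 CPM (next 18.91) and Tek in SHAM 6 at 15.07 CPM (next 7.898). The effect of OHT on Eng in RGCs differed with and without stimulation by a log2 interaction of 3.114 in edgeR's test, from reads in 10 of 41 libraries. DESeq2, limma-voom, a stricter filter and sex as a covariate gave no call for Eng.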

How the results depend on the processing

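Of 472 alternative values of named members 440 kept their direction and their side of the threshold, and 2 left their direction. Both came with sex as a covariate in RGC SHAM + DREADD against SHAM, 0 for Des and 0.18 for Eng. The count of members called in RGCs for OHT + DREADD against OHT was 1 and for OHT + DREADD against SHAM + DREADD 2 without a filter on low counts. For OHT averaged over stimulation it was 1 with DESeq2-type size factors in edgeR and 1 without the filter. For stimulation averaged over OHT in RGCs it was 2 without the fold threshold, 0 with a stricter filter, DESeq2, limma-voom, the replicate block or sex as a covariate, and 0 to 1 with single libraries left out. For the RGC interaction it was 0 at an adjusted p of at most 0.05, with the stricter filter, DESeq2, limma-voom, the replicate block or sex, and 0 to 2 with single libraries left out (2 without SHAM + DREADD 9). For OHT + DREADD against OHT in the SC it was 1 with the likelihood ratio test, 1 fit of 4 groups, DESeq2, the replicate block or sex, and 0 to 1 with single libraries left out. For stimulation averaged over OHT in the SC it was 2 with sex. The cause of these changes was not tested. Of the fixed pairs in RGCs 0 passed with a pseudocount of 0.25 CPM and 3 with 4 CPM, and in the SC 5 passed without centring. Replicate numbers gave little sign of pairing the samples, with 0 to 6 of 10 pairs over a correlation of 0.1 and 0 to 2 of 10 libraries closest to their own number. The 6 pairs came from OHT + DREADD against SHAM + DREADD in the SC. There the median was 0.11 for pairs of the same number, beside -0.020 for other pairs.

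Over all alternatives the genes called in RGCs ran from 0 to 292 (12 as reported) for OHT against SHAM, 0 to 275 (2) for SHAM + DREADD against SHAM, 0 to 246 (15) for OHT + DREADD against OHT, 0 to 217 (7) for OHT + DREADD against SHAM + DREADD, 0 to 586 (59) for averaged OHT, 4 to 502 (50) for averaged stimulation and 0 to 468 (344) for the interaction. In the SC they ran from 0 to 4 (3), 2 to 32 (13), 10 to 118 (15), 0 to 20 (3), 0 to 2 (0), 16 to 120 (19) and 3 to 25 (7) in the same order. The alternatives that leave out SC OHT + DREADD 10, other single libraries outside the planned ones, and sex in the fits of 4 groups or with SHAM + DREADD were chosen after the data were seen. Depth limits Sox18, Des and most RGC members.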
